A study of Mus musculus with 4 samples.

Results

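The genes described here are the cyclins, the cyclin-dependent kinases (CDKs), the CDK inhibitors and the E2F transcription factors, in RNA of the embryonic mouse telencephalon. With them are the pocket proteins, the Cdc25 phosphatases, Wee1 and the Cks subunits. They were chosen by gene symbol alone, and 59 of the 27293 genes in the deposited count table carried such a symbol. RNA was sequenced at embryonic day 13 (E13) in 4 libraries on the C57BL/6 background, 2 labelled wild type (WT) and 2 labelled conditional knockout (cKO) with the genotype STINGf/f;Nestin-Cre. STING is an adaptor of the innate immune response to cytosolic DNA, and the study asked which transcripts differ when it is deleted in the developing brain. Nestin-Cre acts in neural progenitors and the cells they give rise to, so that vessels, blood and meninges in the same tissue would keep the gene. The title of WT 2 carries the abbreviation nes where that of WT 1 carries wt, although both have the genotype label WT, so whether the WT libraries share every allele cannot be told from the labels. The labels name telencephalic tissue, the methods name cerebral cortex and a figure legend of the paper names forebrain. The number of embryos and litters behind each library was not given in the sources used here. The p-values below therefore measure only the spread between these libraries, which may be technical at least in part. WT 1 and WT 2 did not come from the same embryo, as WT 1 held 2735 reads of 4 Y-linked genes and WT 2 held 0.

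The cell cycle is driven by kinases that become active only when bound to a cyclin. D-type cyclins with CDK4 and CDK6, and then cyclin E with CDK2, phosphorylate the retinoblastoma family of pocket proteins, which releases E2F factors to transcribe the genes of DNA replication. Cyclin A and cyclin B with CDK1 then carry the cell through G2 and mitosis, with Wee1 as a brake and the Cdc25 phosphatases as the release. In the embryonic cortex, the length of G1 in progenitors is linked to the choice between renewal and neuronal differentiation, and Cdkn1b and Cdkn1c act in cells that leave the cycle. The members are described in the order of the phases in which they act.

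The 4 libraries held between 17209654 and 18533391 counts on genes, of which the members made up 0.472% to 0.515%. The targeted gene, listed as Tmem173, had 20 and 19 counts in the libraries labelled WT and 18 and 22 in those labelled cKO (log2 fold change 0.02, 95% interval −1.02 to 1.06). Counts this low over the whole gene can neither bear out nor contradict the labels, as the deleted exons are not given in the sources used here. By Western blot, the paper reports a significant difference in STING protein between control and cKO cortex at a later embryonic day. WT and cKO below stand for what the libraries are labelled. The 8 markers of telencephalic progenitors summed to 1835 to 2055 CPM (counts scaled to a common library size), the 3 of intermediate progenitors to 536 to 614 CPM and the 6 of neurons to 4281 to 5160 CPM. WT 1 stood apart in markers of other tissues. The 6 markers of meninges and mesenchyme summed to 275 CPM there against 36.7 to 72.7 CPM in the other libraries, and Col1a1 and Col1a2 met the thresholds given below, both lower in cKO. The 6 markers of choroid plexus and cortical hem summed to 53.6 CPM in WT 1 against 9.34 to 14.8 CPM, with Otx2 lower in cKO at the same thresholds. The 5 erythroid genes summed to 907 CPM in WT 1 against 356 to 548 CPM. The 4 endothelial genes summed to 146 against 97.2 to 110 CPM, and the 4 microglial genes to 30.7 against 19.6 to 23.6 CPM. Within these lists the endothelial Cldn5 (23.5 CPM in WT 1) and the microglial Aif1 (0.690 CPM) were higher in WT 2 and cKO 2. The 6 ventral telencephalic markers were low in cKO 1, at 527 CPM against 792 to 839 CPM elsewhere. They were present in every library, so the levels below are those of the tissue sampled, whether or not it was cortex alone. No gene of these lists was at 0 in all 4 libraries.

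Levels are given in CPM, with library sizes after TMM normalization, and always in the order WT 1, WT 2, cKO 1 and cKO 2. Of the 59 members, 56 had enough counts to be tested. The others were Cdkn2a (2, 1, 2 and 0 counts), Cdkn2b (4, 0, 3 and 0 counts) and Cdk15 (3, 0, 0 and 0 counts), for which a difference was not detectable at this depth, 3 counts being 0.162 to 0.174 CPM. No member met the thresholds of the study, a fold change of at least 2 with an unadjusted p of at most 0.05, where 0.811% of the 16145 genes tested did, 0.669% lower and 0.142% higher in cKO. By edgeR's quasi-likelihood test 0 of 56 members had an unadjusted p under 0.05 (1.23% of all genes, 199 in number) and the smallest was 0.192, for Ccnd1. After Benjamini-Hochberg adjustment over all genes tested, every tested member had an adjusted p of at least 0.9999 with edgeR, and 0% of all genes passed 0.05. DESeq2 also called 0 members by either rule. In bulk RNA a smaller share of cycling cells and less RNA per cell cannot be told apart, and the values below bear on neither alone.

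By sign, 26 members were higher and 30 lower in cKO. Their median log2 fold change was −0.02 against −0.01 over all genes tested, and the median size of the change was 0.08 against 0.13. The single values ran from −0.78 for Cdk18 to 0.20 for Cks1b. The 95% interval of the difference lay within a 2-fold change in either direction for 52 of 56 members (70.2% of all genes tested) and within 1.5-fold for 41. The exceptions at 2-fold were Ccne2, Cdkn1a, Ccna1 and Cdk18, which are among the lowest-expressed members. The plot of fold changes by member shows every interval crossing 0. In 6 members both cKO libraries lay above both WT libraries (11% of all genes), namely Cks1b, E2f8, Ccnf, Cdk4, Cdc25a and Ccnk. In 0 members did both lie below, where 10.8% of all genes did.

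**Figure D1:**
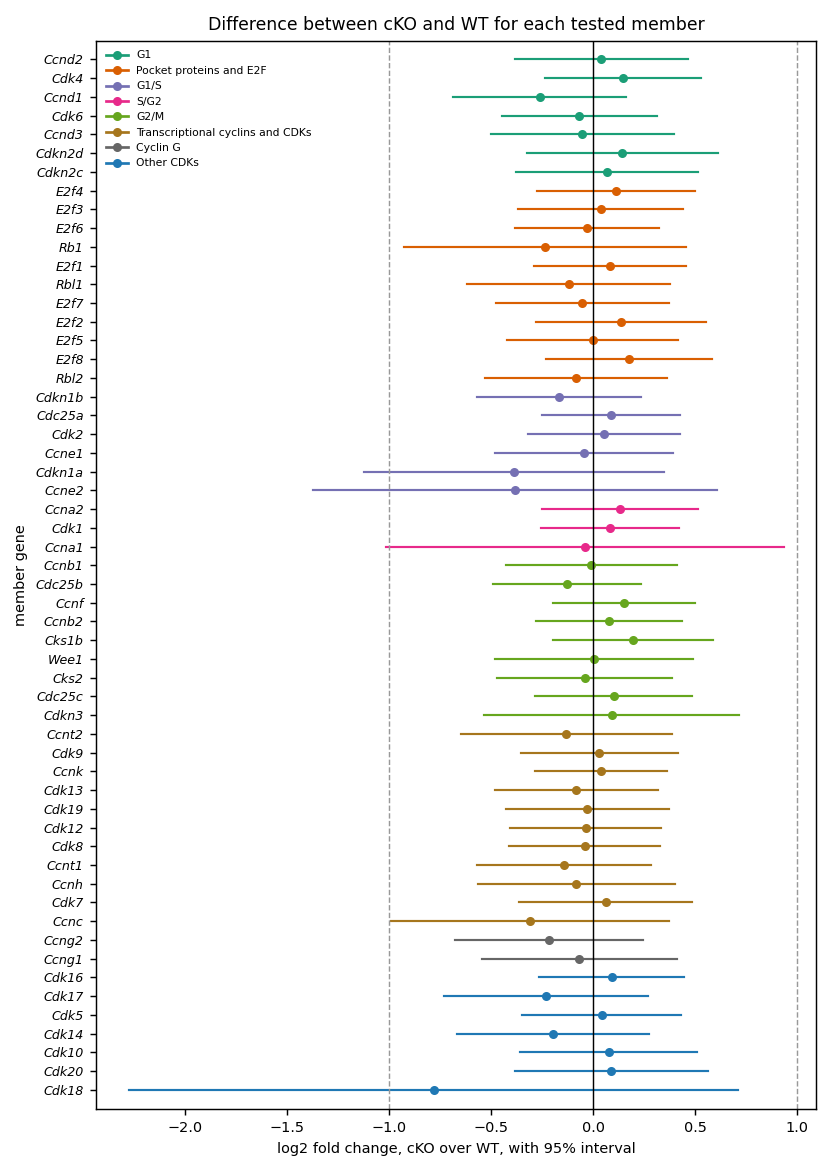
Log2 fold change of cKO over WT for each of the 56 tested members, with the edgeR estimate as a point and its 95% interval as a bar, coloured by phase group and ordered by level within it. The dashed lines mark a 2-fold change, and every interval crosses 0, with Cdk18, Ccne2, Cdkn1a and Ccna1 the widest.

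Compared per kb of annotated exon, the members covered a wide range of levels. Cdk4 was the highest at 233 ± 22.3 CPM per kb (SD over the 4 libraries), followed by Ccnd2 at 85.4 ± 9.99, Cks2 at 63.5 ± 7.09, Cdk16 at 59.0 ± 4.49 and Cks1b at 53.7 ± 6.72 CPM per kb. Cks2, Cdk16 and Cks1b differed from each other by about as much as their libraries did. Ccna1 and Cdk18 were the lowest of the members tested, at 0.873 ± 0.139 and 0.112 ± 0.0505 CPM per kb. These values rest on the union of all annotated exons, so a gene with long and rarely used exons gets a lower value. The plot of levels by gene shows that the distance between genes was far larger than that between libraries.

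**Figure D2:**
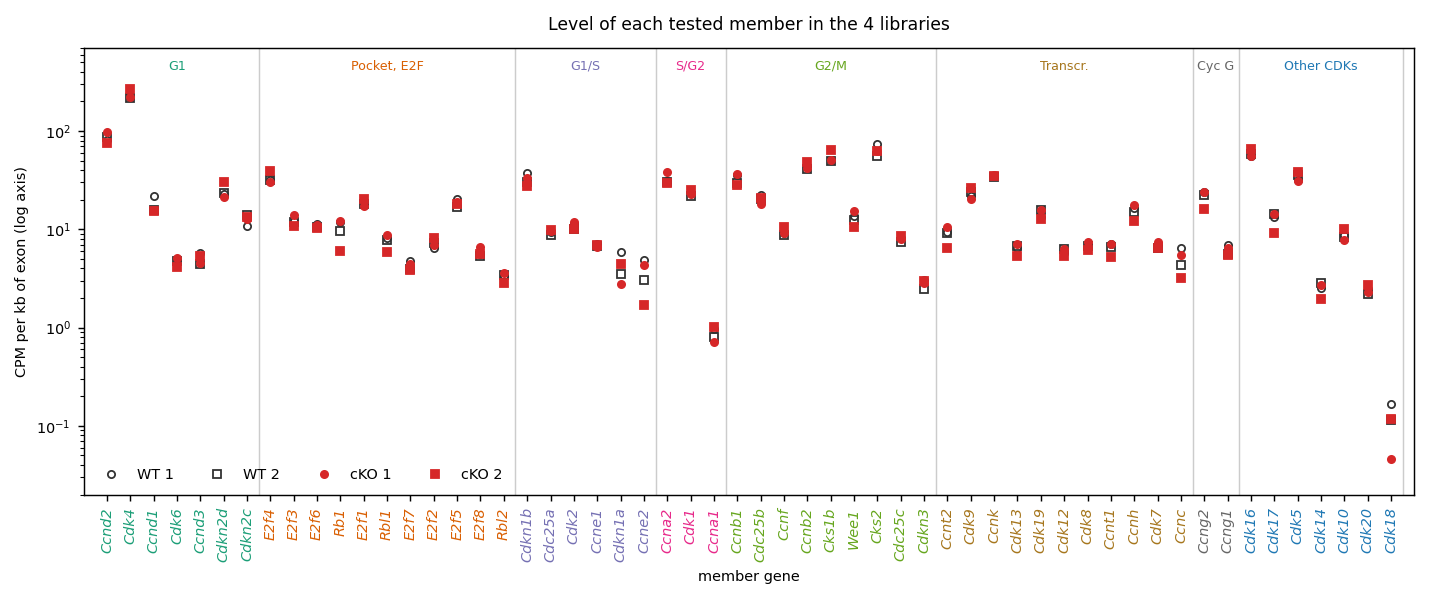
Level of each tested member in CPM per kb of exon on a log axis, by phase group, with open symbols for WT 1 and WT 2 and filled symbols for cKO 1 and cKO 2. Cdk4 and Ccnd2 lie at the top and Cdk18 at the bottom, and the largest gaps between libraries are in Ccne2, Cdk18, Cdkn1a, Rb1 and Ccnc.

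The promoters of the members were searched for the motifs through which the E2F and MuvB complexes are known to time transcription over the cycle, a feature that the choice by symbol did not use. RefSeq start sites on GRCm38.p6 gave 53 promoters for 46 members, each 300 bases from 250 before the start to 50 after it, and 7 genes had 2 of them. Matches were sought on both strands. The E2F element was searched as TTGGCGC, alternatively written with other central bases as TTCCCGC, and likewise as TTCGCGC, with the remaining variant being TTGCCGC. The cell cycle homology region (CHR) was searched as TTTGAA, with the variant spelling TTCGAA, and the NF-Y box by the letters CCAAT. An E2F match stood in 22.6% of member promoters and 9.57% of all 32851 promoters, a CHR match in 22.6% and 19.2%, and CCAAT in 54.7% and 37.4%. By group, E2F letters were found in 5 of 10 promoters of the pocket proteins and E2F genes and in 2 of 6 of the G1/S group, against 1 of 7 in the G2/M group. CHR letters were found in 5 of 7 G2/M promoters, 4 of 10 of the pocket proteins and E2F genes and 0 of 6 in the G1/S group, and CCAAT in 7 of 7 G2/M promoters. Printed below is 1 example for G1/S entry, 1 for the E2F family and 3 for mitotic entry, 5′ to 3′ in the direction of the gene, with every match to these letters on either strand in capitals. The promoters lie at chr9:109875329-109875628 on the plus strand (Cdc25a), and on the minus strand at chr7:48881547-48881846 (E2f8), chr10:69352863-69353162 (Cdk1), chr13:100786437-100786736 (Ccnb1) and chr9:70421505-70421804 (Ccnb2).
Cdc25a: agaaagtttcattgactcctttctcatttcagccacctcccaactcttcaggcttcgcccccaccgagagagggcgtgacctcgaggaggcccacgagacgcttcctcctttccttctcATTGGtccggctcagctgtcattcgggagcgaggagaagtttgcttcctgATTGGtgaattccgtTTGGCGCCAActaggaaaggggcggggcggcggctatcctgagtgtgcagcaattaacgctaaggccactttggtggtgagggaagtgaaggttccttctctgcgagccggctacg
E2f8: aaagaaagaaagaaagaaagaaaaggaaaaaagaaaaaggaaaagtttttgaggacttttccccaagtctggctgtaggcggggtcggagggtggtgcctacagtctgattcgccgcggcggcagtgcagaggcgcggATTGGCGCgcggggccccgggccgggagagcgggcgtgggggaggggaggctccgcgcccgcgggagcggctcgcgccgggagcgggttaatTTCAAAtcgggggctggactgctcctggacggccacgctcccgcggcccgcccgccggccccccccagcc
Cdk1: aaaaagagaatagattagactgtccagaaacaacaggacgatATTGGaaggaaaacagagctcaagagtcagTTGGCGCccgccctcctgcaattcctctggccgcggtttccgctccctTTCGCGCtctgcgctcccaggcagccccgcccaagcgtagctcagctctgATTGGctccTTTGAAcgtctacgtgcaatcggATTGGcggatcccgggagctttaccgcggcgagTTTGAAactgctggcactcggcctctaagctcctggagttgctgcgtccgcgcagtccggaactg
Ccnb1: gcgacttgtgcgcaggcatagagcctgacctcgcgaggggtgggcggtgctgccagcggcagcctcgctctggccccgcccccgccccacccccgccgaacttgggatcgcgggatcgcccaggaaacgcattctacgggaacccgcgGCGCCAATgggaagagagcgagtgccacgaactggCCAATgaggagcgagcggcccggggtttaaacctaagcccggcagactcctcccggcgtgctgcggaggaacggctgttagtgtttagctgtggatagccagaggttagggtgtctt
Ccnb2: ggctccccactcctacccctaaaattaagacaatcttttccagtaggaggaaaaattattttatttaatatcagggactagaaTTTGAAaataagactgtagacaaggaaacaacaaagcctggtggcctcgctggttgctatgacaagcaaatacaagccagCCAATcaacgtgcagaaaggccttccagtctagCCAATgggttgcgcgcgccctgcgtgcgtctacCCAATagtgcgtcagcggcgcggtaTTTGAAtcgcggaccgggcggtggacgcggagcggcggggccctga
In Cdc25a a pair of E2F matches on opposite strands shares 4 bases 66 bases before the start, with 2 CCAAT boxes upstream, and in E2f8 and Ccnb1 an E2F match and a CCAAT box share 4 bases. Cdk1 holds both kinds of element, with E2F letters 178 and 130 bases and CHR letters 71 and 15 bases before the start. Ccnb2 holds no E2F letters but 3 CCAAT boxes, 87, 54 and 21 bases before the start, and CHR letters 167 bases before and 5 bases after it. A match describes these letters only and is not evidence of a bound site.

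The G1 group held the most abundant members. Summed over its 9 genes the level was 1773, 1790, 1903 and 1831 CPM, or 1782 ± 11.9 in WT and 1867 ± 51.1 in cKO (SD, n = 2), which was 36.4% and 37.7% of the CPM of all members. Ccnd2 (chr6:127125162-127152193, minus strand), the D-type cyclin characteristic of cortical progenitors, had 761, 823, 924 and 705 CPM. Its highest and its lowest level were both in libraries labelled cKO, and the log2 fold change was 0.04 (95% interval −0.38 to 0.46). Per kb, Ccnd2 made up 74.6%, 81.3%, 82.9% and 78.3% of the 3 D-type cyclins, so it was the main one in every library. Cdk4 (chr10:127063534-127067920, plus strand), the kinase partner of the D-type cyclins, had 725, 713, 725 and 865 CPM. The cKO libraries both lay above the WT libraries, but cKO 1 by less than 1 CPM, and the whole difference of 0.15 on the log2 scale (−0.23 to 0.53) rested on cKO 2, without which it was 0.03. Per kb, Cdk4 was 97.8% to 98.5% of Cdk4 and Cdk6 together, Cdk6 being the alternative partner.

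Ccnd1 (chr7:144929931-144939925, minus strand), a D-type cyclin that transmits growth factor and Wnt signals, had 102, 73.7, 74.0 and 72.5 CPM. WT 1 was high, and the other libraries lay within 2 CPM of each other, so the mean of 87.97 ± 20.2 in WT against 73.3 ± 1.08 in cKO (SD, n = 2) was set by WT 1 (log2 fold change −0.26, −0.69 to 0.16). WT 1 was also the library with the highest summed markers of meninges, choroid plexus, blood, endothelium and microglia. Cldn5 and Aif1 were not highest there, and the part of these cells in the Ccnd1 level was not tested. Ccnd3 and Cdk6 differed by −0.05 and −0.07 on the log2 scale. Ccnd3 has a processed pseudogene in the table whose count was 0.113% to 0.416% of its own. How reads shared between them were treated is not given, so their effect on the Ccnd3 level is not known.

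The CDK4 and CDK6 inhibitors of the INK4 family were split by level. Cdkn2d, which encodes the p19 protein of the family and is known in postmitotic neurons, had 36.3, 37.2, 33.8 and 47.4 CPM, with cKO 1 the lowest and cKO 2 the highest (log2 fold change 0.14, −0.32 to 0.61). Cdkn2c, known in dividing progenitors, had 28.8, 37.9, 34.3 and 35.6 CPM, and WT 1 was the low library (0.07, −0.38 to 0.51). The senescence-associated Cdkn2a and Cdkn2b were at 4 counts or fewer in each library, as given above.

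The pocket proteins and E2F factors, 11 genes, summed to 553, 519, 564 and 509 CPM, or 536 ± 23.8 in WT and 536 ± 39.0 in cKO (SD, n = 2). Among them 5 were higher and 6 lower in cKO, with a median log2 fold change of −0.002. The activators E2f1, E2f2 and E2f3 drive S phase genes. E2f1 had 55.8, 57.2, 54.9 and 64.7 CPM, E2f2 had 31.6, 35.6, 33.9 and 39.9 CPM, and cKO 2 was the highest library in both. E2f3 ran the other way, at 66.5, 64.0, 75.6 and 58.3 CPM with cKO 2 the lowest. Their log2 fold changes were 0.08, 0.14 and 0.04, and the intervals reached no further than −0.37 and 0.55.

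E2f4, the main repressor E2F of resting cells, was the highest of the family at 78.1, 78.1, 73.8 and 95.02 CPM. The WT libraries were level with each other, and the cKO libraries lay on either side of them (log2 fold change 0.11, −0.28 to 0.50). E2f5, which also pairs with the pocket proteins, had 36.5, 29.8, 33.6 and 32.6 CPM (−0.002, −0.42 to 0.42), with both extremes in WT. E2f6, a repressor that binds no pocket protein, had 64.5, 60.1, 63.2 and 58.8 CPM and was among the steadiest members (−0.03, −0.38 to 0.32). The atypical repressors E2f7 and E2f8 act late in S phase. E2f7 had 42.8, 35.2, 40.1 and 35.1 CPM, in which replicate 1 was above replicate 2 under both labels (−0.05, −0.48 to 0.37). E2f8, whose promoter is printed above, had 30.2, 28.8, 35.7 and 30.9 CPM. The cKO libraries were both above the WT libraries, by 0.17 on the log2 scale (−0.23 to 0.58), and cKO 2 was above WT 1 by less than 1 CPM.

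Rb1, the founding pocket protein, was named for its spread after its values were seen. It had 71.5, 57.6, 73.0 and 36.6 CPM, so cKO 2 stood at 0.501 of cKO 1 while the remaining libraries lay from 57.6 to 73.0 CPM. The log2 fold change was −0.24 (−0.93 to 0.45), and it depended on the cKO library, at 0.19 without cKO 2 and at −0.82 without cKO 1. Rbl1 and Rbl2, its relatives, differed by −0.12 and −0.08, with cKO 2 again the lowest library in both.

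The 6 genes of the G1/S transition summed to 374, 311, 343 and 307 CPM, or 342 ± 44.6 in WT and 325 ± 25.7 in cKO (SD, n = 2), with replicate 1 above replicate 2 under both labels. Cdk2, the partner of cyclin E, had 69.6, 62.1, 73.8 and 63.1 CPM (log2 fold change 0.05, −0.32 to 0.43). Cdc25a, the phosphatase that activates Cdk2, had 76.0, 70.1, 76.7 and 78.5 CPM. The cKO libraries were above the WT libraries, but the gap between cKO 1 and WT 1 was under 1 CPM, and the difference was 0.09 (−0.25 to 0.42). Cyclin E was carried by both genes. Ccne1 had 18.9, 18.2, 17.5 and 18.4 CPM and hardly varied, while Ccne2, named after its values were seen, had 17.2, 10.6, 15.3 and 5.99 CPM. The Ccne1 share of the pair per kb therefore ran from 59.0% in WT 1 to 80.2% in cKO 2.

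For Ccne2 the libraries overlapped and the log2 fold change of −0.39 had a wide interval (−1.38 to 0.61). The value depended on which cKO library was read. Without cKO 1 it was −1.22, and without cKO 2 it was 0.15. Ccne2 was picked from the members for this spread, and each of these fits rests on 1 cKO library.

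The Cip and Kip inhibitors block CDK2 complexes and hold cells out of the cycle. Cdkn1b, known in neurons that have just left the cycle, was the most abundant inhibitor at 171, 137, 150 and 125 CPM. Replicate 1 was above replicate 2 under both labels, and the difference between labels was −0.17 (−0.57 to 0.23). Cdkn1a, the p53-responsive inhibitor, had 20.8, 12.5, 9.84 and 15.6 CPM. It was highest in WT 1 and lowest in cKO 1, the groups overlapped through cKO 2, and the log2 fold change of −0.39 had an interval of −1.12 to 0.34. Cdkn1c, which the symbol rule does not cover, was likewise highest in WT 1, at 64.5, 37.8, 40.8 and 34.1 CPM (−0.45, −1.04 to 0.14). As for Ccnd1, these levels were highest in the library with the most RNA of meninges, choroid plexus and blood, and the part of those cells in them was not tested.

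The S and G2 group, 3 genes, summed to 245, 235, 269 and 248 CPM, or 240 ± 7.40 in WT and 259 ± 14.98 in cKO (SD, n = 2). Ccna2, the cyclin A of dividing somatic cells, had 128, 125, 155 and 121 CPM. Here cKO 1 was high and cKO 2 the lowest, and the difference of 0.13 (−0.25 to 0.51) was 0.31 without cKO 2. Cdk1, the mitotic kinase, had 116, 109, 113 and 125 CPM, in which cKO 1 lay between the WT libraries (0.08, −0.25 to 0.42). Ccna1, the germ line cyclin A, was near 1.6 CPM under both labels, with 24 to 33 counts per library.

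The G2/M group of 9 genes summed to 572, 509, 557 and 552 CPM, or 540 ± 44.8 in WT and 554 ± 3.59 in cKO (SD, n = 2), and 6 of the 9 were higher in cKO by sign. Ccnb1 (149, 123.5, 153 and 118 CPM), the cyclin whose complex with Cdk1 starts mitosis, had a log2 fold change of −0.01 (−0.43 to 0.41), replicate 1 being above replicate 2 in both groups. Ccnb2, the second mitotic cyclin, had 67.5, 63.3, 64.7 and 73.3 CPM (0.08, −0.28 to 0.43). A pseudogene copy counted at 15.5% to 19.2% of it, and the effect of any shared reads on the Ccnb2 level is not known. The copy of Ccnb1 stood at 0.760% to 1.11%. Cdc25b, the phosphatase that activates Cdk1 at mitotic entry, had 83.9, 75.1, 67.4 and 78.2 CPM, with WT 1 the highest and cKO 1 the lowest (−0.13, −0.49 to 0.24).

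Ccnf, an F-box cyclin that marks proteins for breakdown in G2, had 70.8, 67.5, 72.1 and 81.5 CPM. The cKO libraries were above both WT libraries, and the difference was 0.15 (−0.20 to 0.50). Cks1b, a small CDK subunit that also serves in Cdkn1b degradation, had the highest log2 fold change of all members, at 0.20 (−0.19 to 0.59). Its levels were 56.8, 55.9, 57.4 and 71.8 CPM, so that cKO 1 exceeded WT 1 by less than 1 CPM and the value without cKO 2 was 0.04. Cks2, Cdc25c and Wee1 differed by −0.04, 0.10 and 0.002. Cdkn3, the phosphatase that acts on CDKs and is counted with the inhibitors by name, had 7.19, 5.81, 6.72 and 7.11 CPM (0.09, −0.54 to 0.72).

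**Figure D3:**
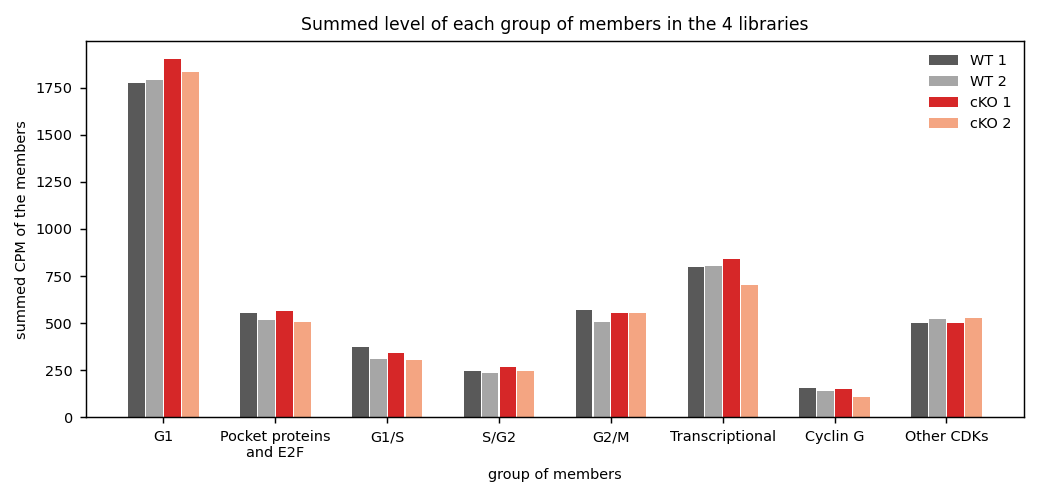
Summed CPM of the members of each phase group in WT 1, WT 2, cKO 1 and cKO 2, 1 bar per library. The G1 group is the highest in every library at 1773 to 1903 CPM, and in the transcriptional and cyclin G groups the cKO 2 bar, at 702 and 107 CPM, is the lowest of the 4.

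Not every cyclin or CDK of the symbol rule drives the cycle. The 11 transcriptional members act in the Mediator kinase, in TFIIH, in the elongation factor P-TEFb or as cyclin K with its kinases. They summed to 800, 802, 843 and 702 CPM, or 801 ± 1.45 in WT and 773 ± 99.2 in cKO (SD, n = 2). Ccnt2, a cyclin of P-TEFb, had 117, 113, 130 and 79.7 CPM, with the cKO libraries as the extremes (−0.13, −0.65 to 0.39). Its kinase Cdk9 had 101, 110, 94.7 and 121 CPM, again with the cKO libraries as the extremes but in the opposite order (0.03, −0.36 to 0.42). Ccnk, the cyclin of CDK12 and CDK13, was the steadiest of these at 106, 103, 108 and 106 CPM (0.04, −0.28 to 0.36). Ccnc, the cyclin of the Mediator kinase, was named after its values were seen and had 32.8, 22.1, 27.9 and 16.3 CPM (−0.31, −0.99 to 0.37).

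The cyclin G genes, which are p53-responsive or growth-inhibiting and are not known to drive a phase, summed to 155, 142, 153 and 107 CPM. Ccng2 had 131, 122.8, 130 and 87.9 CPM, where cKO 2 alone was low (−0.22, −0.68 to 0.24). Ccng1 had 24.4, 19.6, 22.8 and 19.1 CPM (−0.07, −0.55 to 0.41), with replicate 1 above replicate 2 under both labels.

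The remaining CDKs, among them the neuronal kinase Cdk5, summed to 499, 525, 502 and 525 CPM. Cdk5, which acts with p35 in migrating neurons, had 68.2, 78.2, 67.6 and 83.0 CPM, so replicate 2 was above replicate 1 under both labels (0.04, −0.35 to 0.43). Cdk16, a PCTAIRE kinase of neurons and the only member on a sex chromosome (chromosome X), had 246, 255, 246 and 287 CPM (0.09, −0.27 to 0.45). Reads from chromosome Y, counted over Uty, Kdm5d, Eif2s3y and Ddx3y, were at 0 in WT 2 and at 1848 to 3002 in the other libraries, and Cdk16 in WT 2 lay inside the range of the others. Its relative Cdk17 had 81.5, 86.7, 87.5 and 55.8 CPM, with cKO 2 alone low (−0.23, −0.73 to 0.27). Cdk18, with 14, 10, 4 and 10 counts, had the lowest log2 fold change of the members, but its interval of −2.28 to 0.71 was too wide to place it on either side of 0.

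The same library, cKO 2, set the pattern in many of these genes. It was the highest or the lowest of the 4 in 44 of 56 tested members (67.0% of all genes tested). It was the lowest in 27 (33.4% of all genes tested) and the highest in 17 (33.6% of all genes tested). The cKO libraries differed from each other by a median of 0.28 on the log2 scale over the members and the WT libraries by 0.12. Over the 55 members with at least 10 counts in each library the gaps were 0.26 and 0.12. Over all 14919 such genes they were 0.29 and 0.16, so a wide cKO gap was not particular to the members. The cKO gap was the larger in 43 of 56 members, a count not taken over all genes. At a fold of 1.3, cKO 2 was below cKO 1 in 13 members and above it in 4, against 7 and 1 for WT 2 relative to WT 1. These counts were not taken over all genes either. The tested members lowest in cKO 2 relative to cKO 1 were Ccne2 at 0.391, Rb1 at 0.501, Ccnc at 0.585, Ccnt2 at 0.613 and Cdk17 at 0.638.

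These ratios moved with the base composition of the transcripts. Over the 55 members with at least 10 counts in each library, the ratio of cKO 2 to cKO 1 had a Spearman correlation of 0.80 with the GC content of the longest annotated transcript, and −0.47 with exon length. Over all 14919 genes with that count the values were 0.63 and −0.35. All points of such a correlation share the same 2 libraries, so it describes these libraries only. For WT 2 over WT 1 the correlation with GC was 0.29 over members and 0.16 over all genes. Of the 27 members below the median GC content of 48.7%, 23 were lower in cKO 2 than in cKO 1 and the median ratio was 0.782. Over all genes below that content, 75.9% of 6636 were lower, with a median ratio of 0.824. Of the 28 members at or above it, 9 were lower and the median ratio was 1.16. Over all genes at or above it, 25.3% of 8283 were lower, with a median ratio of 1.15. Ccne2 and Ccnc, the members with the lowest GC content at 36.3% and 35.5%, were also the lowest in WT 2 relative to WT 1 apart from Cdkn1a, at 0.619 and 0.674. The plot of library ratios against GC content shows the slope in the cKO pair.

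**Figure D4:**
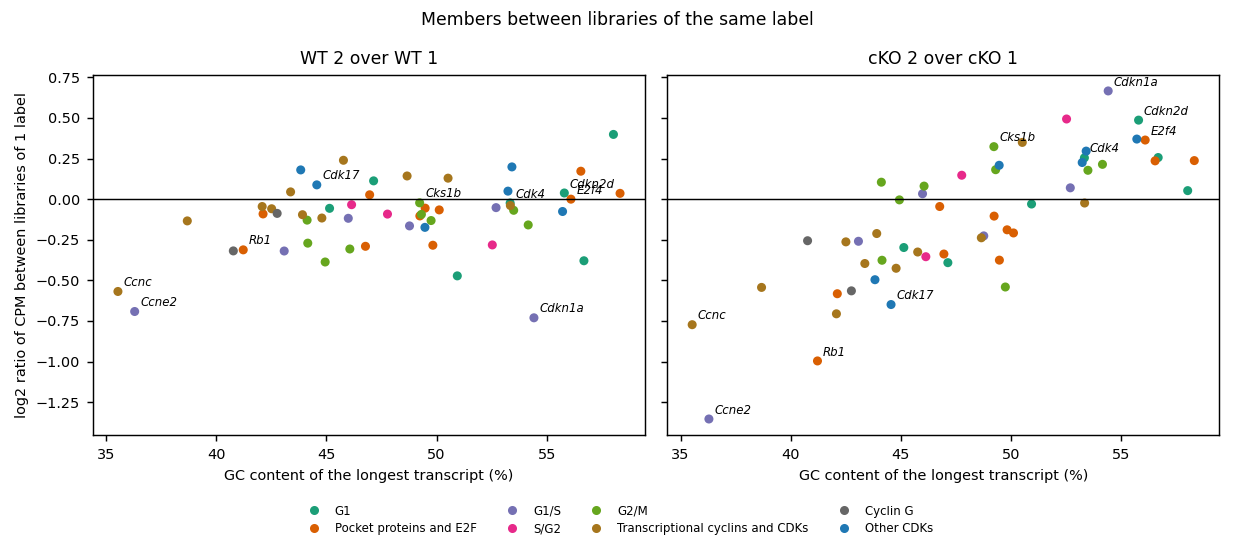
Log2 ratio of CPM between the libraries of 1 label for each of 55 members against the GC content of its longest transcript in percent, WT 2 over WT 1 on the left and cKO 2 over cKO 1 on the right, coloured by phase group. In the cKO pair the ratios climb from Ccne2, Rb1 and Ccnc at low GC to Cdkn1a, Cdkn2d and E2f4 at high GC, with a Spearman correlation of 0.80, against 0.29 in the WT pair.

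When the counts were fitted with offsets that remove the trend with GC content within each library, an alternative chosen after the data were seen, the median gap between the cKO libraries over the members went from 0.26 to 0.20 on the log2 scale, and that between the WT libraries from 0.12 to 0.11. In that fit Ccne2 had a log2 fold change of −0.15, Rb1 of −0.13, Ccnc of 0.01 and Ccnt2 of −0.03, all nearer to 0 than before. Ccnd1 stayed at −0.26 and Cdkn1a at −0.41, and of the members higher in both cKO libraries Cks1b was at 0.21, E2f8 at 0.18, Ccnf at 0.14, Cdk4 at 0.14, Cdc25a at 0.14 against 0.09 before, and Ccnk at 0.04. No member was called. Whether the slope with GC content arose in the tissue, the RNA or the library preparation was not tested.

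The other genes of the pathway were taken from 2 lists. Of 35 partners and regulators of these complexes all were tested and 0 were called (0.811% of all genes). By sign 22 were above 0 (47.9% of all genes), with a median log2 fold change of 0.04. None had an unadjusted p under 0.05 in edgeR (1.23% of all genes). In 8 of the 35 both cKO libraries were above the WT libraries (11% of all genes) and in 1 both were below (10.8% of all genes). The highest in level were Ccni, an atypical cyclin, at 439, 406, 411 and 333 CPM, Cdk5r1, which encodes the p35 activator of Cdk5, at 328, 398, 322 and 366 CPM, and Rbbp4, a chromatin subunit of the MuvB complex, at 299, 327, 321 and 319 CPM. The lowest value was −2.40 (−5.14 to 0.35) for Ccno, the cyclin of multiciliated cells, with 84 counts in WT 1 and 4, 3 and 14 in the other libraries. WT 1 was also high in choroid plexus markers, and the part of those cells in the Ccno level was not tested.

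Of 16 target genes of E2F in S phase and proliferation, 0 were called (0.811% of all genes). None had an unadjusted p under 0.05 in edgeR (1.23% of all genes). All 16 nevertheless had a log2 fold change above 0, where 47.9% of all genes did. The median was 0.13, the range 0.04 to 0.30, and in 8 of the 16 both cKO libraries were above both WT libraries (11% of all genes). The highest was Gmnn, the replication licensing inhibitor, at 27.4, 26.0, 29.6 and 36.3 CPM (0.30, −0.12 to 0.73). The most abundant were Top2a at 428, 456, 517 and 415 CPM, Mki67 at 383, 437, 500 and 384 CPM and Pcna at 283, 266, 296 and 272 CPM. In Top2a, Mki67 and Pcna alike cKO 1 was the highest library and cKO 2 lay within or below the range of WT. Of the 56 members tested, 20 were highest in cKO 1 (23.7% of all genes tested), among them Ccnd2, E2f3 and Ccna2. That library was also low in ventral telencephalic markers. The GC content of Top2a (43.4%), Mki67 (46.6%), Pcna (45.3%), Ccnd2 (47.1%) and Ccna2 (46.1%) lay below the member median of 48.7%, and that of E2f3 (49.5%) above it. The parts of tissue make-up and of GC content in these levels were not tested separately. Without cKO 1 the number above 0 was 11 of 16 with a median of 0.10, and it was 16 of 16 in every other alternative fit run. The list was chosen with earlier results of these data known, and its genes are transcribed together in cycling cells. They are therefore not separate observations, the count of signs is a description only, and the interval of each gene included 0.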

How the data were processed

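RNA-seq data from E13 mice, in 2 libraries labelled WT and 2 labelled cKO, were used. The tissue is labelled telencephalic and is called cerebral cortex in the methods and forebrain in a figure legend. The authors extracted total RNA with TRIzol, sequenced it on an Illumina HiSeq instrument and deposited an unnormalized read count for each gene and library. Total counts ran from 17209654 to 18533391. The submitters' processing notes list Bowtie2 2.2.3, TopHat2 2.0.12, HTSeq 0.6.0 and the mouse build mm9, without role or order. Positions in the table nevertheless match GENCODE M21, the GRCm38 annotation, within 1 base at a start or an end for 97.2% of 27232 genes and for 56 of 59 members, and were read as GRCm38. Strand and the treatment of reads shared with pseudogenes are not given in the sources used here. Of 27304 rows, 11 (0.04%) are blank and were left out. A second table of WT 1 and cKO 1 holds the same counts for all 21342 genes in both. The deposited fold changes, p-values and scaled values of the authors' own comparisons were not used.

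Counts were tested with edgeR 4.0.16 in R 4.3.3 (filterByExpr, TMM factors of 0.9888 to 1.012, quasi-likelihood test, cKO against WT, no covariate) on 16145 genes, with Benjamini-Hochberg adjustment over all of them. The thresholds are those of the study's methods. Intervals are 95% intervals from the same fit. CPM uses TMM library sizes, and CPM per kb divides by the union of exons in GENCODE M21. Alternatives were RLE and upper quartile normalization, 2 other filters, DESeq2 1.42.0, each library left out, the replicate number as a block, and GC offsets (loess span 0.3). The procedure was tested on simulated counts. Libraries of 1 label differed beyond counting noise, with a chi-square per gene of 13.4 for WT and 38.7 for cKO, so none is the same library deposited again. The chi-square alone does not show that they came from separate embryos. The 4 Y-linked genes summed to 2735 counts in WT 1 and 0 in WT 2, so the WT libraries did not come from the same embryo. For the cKO libraries, with 3002 and 1848 such counts, this remains unknown.

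The members and gene lists were chosen with earlier results of these data known. Values in every library are given, by rule, for the 3 members with the highest mean CPM in each phase group, members with an unadjusted p of at most 0.05, the 4 largest changes in each direction among members whose groups do not overlap, the member on a sex chromosome, the CDK inhibitors and the E2F genes, and, in each pathway list, for the 3 genes with the highest mean CPM. Of other lists only genes past the thresholds are named, except Cdkn1c, Ccno and Gmnn, which were added after their values were seen. Promoters are those of RefSeq on GRCm38.p6, and 13 members without an entry were not searched.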

Additional observations from a re-analysis of the deposited data

How the results depend on the processing

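With 2 libraries per group, 41 of 56 members had a 95% interval within 1.5-fold and 52 within 2-fold, so smaller changes could go undetected. 0 members were called at the study's thresholds or at an adjusted p under 0.05 under RLE and upper quartile normalization, either filter, DESeq2, the replicate block and the GC offsets, and 0 to 1 when a library was left out, the 1 being Ccne2 without cKO replicate 1. Where a library is left out, the lone library is assumed to vary like the other group. Over all genes, 131 were called at the study's thresholds, and 405 with no filter beyond 1 count, 72 where every library had to reach 10 counts, 208 with the replicate block, 82 with DESeq2 and 100 to 517 with a library left out (517 without cKO replicate 1, 383 without WT replicate 2). At an adjusted p under 0.05 there were 0, and 65 with no filter, 5 with the replicate block and 0 to 80 with a library left out (80 without WT replicate 2, 7 without WT replicate 1). The causes were not tested.

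The median log2 fold change of the members was -0.019 and ran from -0.061 to 0.055 with a library left out, at 0.055 without WT replicate 1 and 0.053 without cKO replicate 2, the SD of the median between libraries being 0.060. Without cKO replicate 2, 30 of 56 members changed sign, and without cKO replicate 1, 8 did. Without WT replicate 1, 16 changed sign. Other settings changed the sign of 0 to 9 members. The replicate numbers of the labels are not stated to mark a litter or batch, and same-numbered libraries deviated together with a correlation of 0.139. With the replicate block the median of the members was -0.025, and 0 members were called.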
